A study of Homo sapiens with 4 samples.

Results

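The comparison described here is that of senescent with proliferating fibroblasts while both were under GC7, an inhibitor of eIF5A hypusination, and the question it addresses is which differences of the senescent state are present when hypusination is inhibited. Its members were all nuclear features with at least 40 counts summed over the 4 libraries of the series, which took 11128 of the 57820 annotated features. The measurements were ribosome footprint counts in BJ-Ras-ER cells, human BJ fibroblasts that express hTERT and an oncogenic H-Ras that 4-OHT switches on. Both groups of the comparison carried the inducible Ras. Oncogene-induced senescence (OIS) was reached with 100 nM 4-OHT for 12 days, proliferating cells received none, and GC7 was given at 10 µM for 18 h. The same states with DMSO for 18 h in place of GC7 served as the comparison without the inhibitor. There was 1 library per condition, so the groups had no replicates, and every library came from the same engineered line. In 2 libraries, OIS with DMSO and proliferating with GC7, the submitters' treatment entry disagrees with the title, and the titles were followed. In the table headers, the alignments of both GC7 libraries carry GC7 in their names and those of the DMSO libraries do not, as in the titles. By the entries, neither state would have a library of each treatment.

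Cellular senescence is a lasting exit from the cell cycle in which cells stay metabolically active, and in fibroblasts it goes along with large changes in secreted and matrix proteins and with loss of the programme for DNA replication. eIF5A is a translation factor that helps the ribosome past stretches that are slow to form peptide bonds, prolines in a row among them, and it works only once a lysine has been converted to hypusine. Deoxyhypusine synthase (DHPS) starts that conversion and is the enzyme that GC7 blocks. In ribosome profiling, the pieces of mRNA covered by ribosomes are sequenced, so a count reflects how much mRNA there was and how many ribosomes sat on it. No RNA-seq library was used here, and the 2 contributions cannot be told apart, nor can fewer cells of a kind from less RNA per cell.

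The libraries held 4323662 counts (proliferating, DMSO), 6553835 (proliferating, GC7), 3039026 (OIS, DMSO) and 4860980 (OIS, GC7). Mitochondrially encoded features, which were not members, took 2.89% and 12.2% of the counts with DMSO but 0.0281% and 0.141% with GC7, in proliferating and OIS cells respectively. The deposited tables name features by Ensembl number, and the reference table at hand paired none of these numbers with a gene. Features are therefore given below by their position on the genome build hg19, their exonic length and their number of exon blocks, and no function is given for a single feature. For the same reason the labels of state and of cell type were not checked against marker genes.

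With GC7, 1330 features had more scaled counts in OIS than in proliferating cells, which is 12% of those compared, and 1282 were lower, which is 11.5%. These calls required that the scaled counts differed by at least 2-fold and that equal levels lay outside the ratio's 95% exact counting interval. The interval covers counting error only. The log2 ratio of OIS over proliferating cells had a median of -0.01 over all features and an SD across features of 1.05. The middle part of the distribution was narrow, with 25th and 75th percentiles of -0.53 and 0.52 on the log2 scale. Features that were higher held 11.1% of the counts on compared features in the proliferating GC7 library and 29.8% in the OIS GC7 library. Features that were lower went the other way, from 18.5% to 5.15%. With each library scaled by its total count in place of TMM, the median log2 ratio of all features was -0.24 with GC7 and -0.4 with DMSO, and the share of called features that were higher in OIS cells was 33.8% in place of 50.9% with GC7 and 27.4% in place of 52.8% with DMSO. Numbers of higher against lower features are therefore relative to the scaling, and 2218 of the 2612 GC7 calls were made under total count scaling too.

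With DMSO, in libraries that are not part of the GC7 comparison, 1571 features were higher (14.1%) and 1405 lower (12.6%) in OIS cells. Of the features higher with GC7, 944 were also higher with DMSO, which is 71% of the GC7 list and 60.1% of the DMSO list. Of the features lower with GC7, 719 were also lower with DMSO, 56.1% of the GC7 list and 51.2% of the DMSO list. The direction was shared more widely than the call: 1262 of the 1330 features higher with GC7 (94.9%) and 1173 of the 1282 lower with GC7 (91.5%) had a ratio of the same sign with DMSO. Of all 11128 features, 8561 (76.9%) had the same sign in both comparisons. The Spearman correlation of the GC7 and the DMSO ratios across features was 0.718 over all 11128 features 0.823 over the 6326 with at least 400 counts and 0.39 over the 22700 with at least 1 count. Features are not independent replicates, and each ratio rests on 1 pair of libraries.

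**Figure D1:**
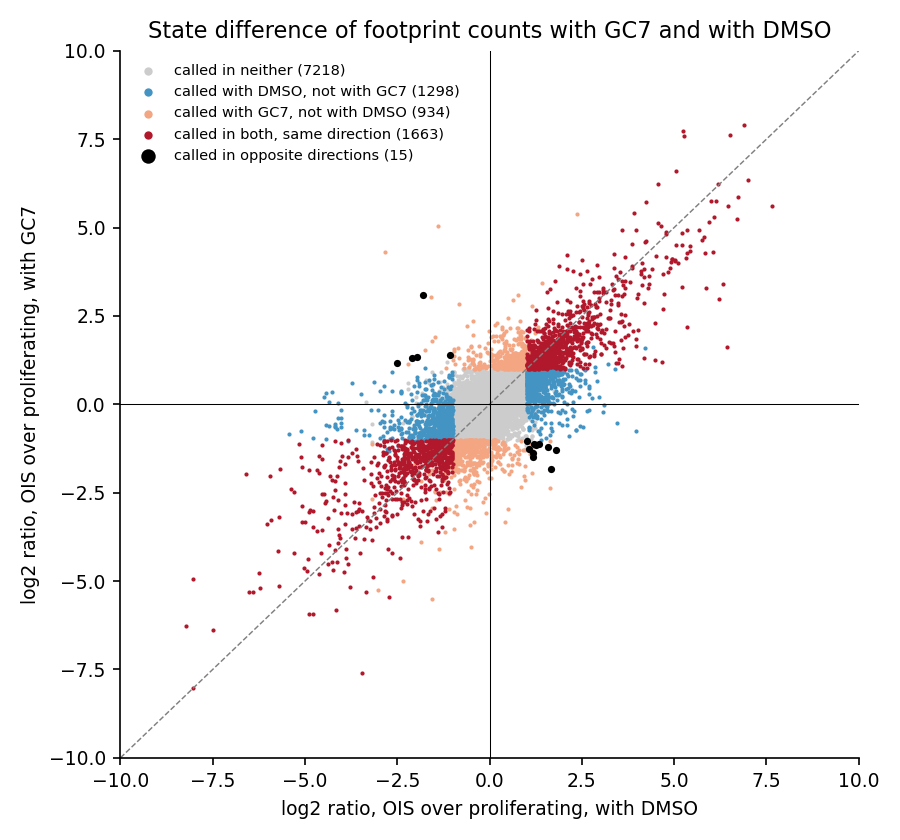
Each point is 1 of the 11128 features, with its log2 ratio of OIS over proliferating cells with DMSO on the horizontal axis and with GC7 on the vertical axis, coloured by call, and the dashed line marks equal ratios. The 1663 features called in both in the same direction lie in the lower left and upper right, and the 15 called in opposite directions lie in the upper left and lower right.

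The larger a difference was with GC7, the more often it was also called with DMSO. Among features higher with GC7 by 2 to 4-fold, 65.6% of 1027 were called higher with DMSO. The share was 85.8% of 183 features at 4 to 8-fold, 93.8% of 65 at 8 to 16-fold and 94.5% of 55 above 16-fold. Among features lower with GC7 the shares were smaller in each class, at 49.6% of 989, 71.7% of 180, 87.3% of 71 and 88.1% of 42. Depth moved with this pattern, and its part in it was not tested. Where the GC7 libraries together held under 50 counts, 44.7% of the higher and 36.6% of the lower features were also called with DMSO, and the median width of the counting interval was 2.31 on the log2 scale. Where they held 1000 counts or more, these shares were 87.2% and 72% and the median width was 0.27.

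**Figure D2:**
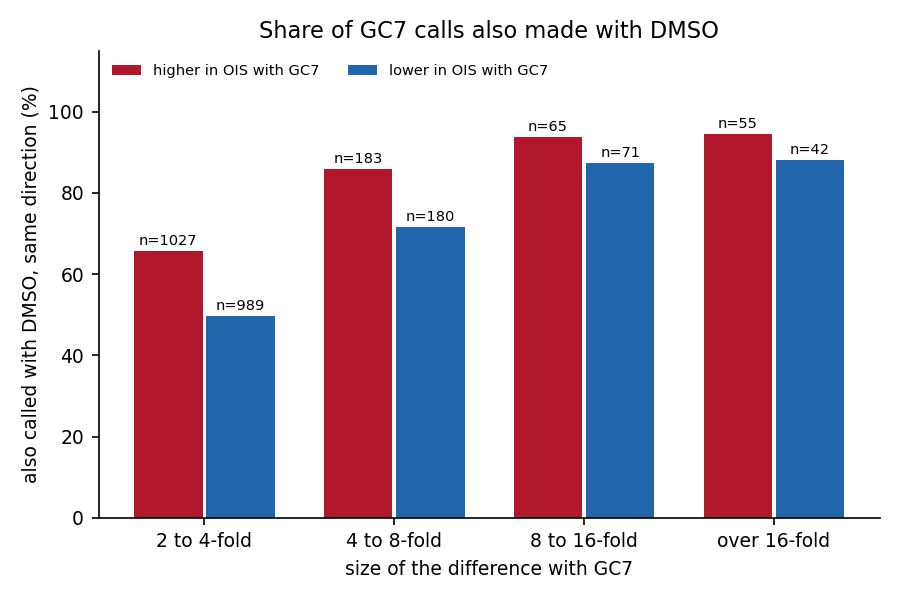
Bars give the percentage of features called with GC7 that were called in the same direction with DMSO, by size of the GC7 difference, for features higher and lower in OIS cells, with the number of features above each bar. The share goes from 65.6% to 94.5% for higher and from 49.6% to 88.1% for lower features.

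Some differences were called in 1 comparison and not in the other. With GC7 but not with DMSO, 381 features were called higher and 553 lower, and 318 and 454 of these had the same sign with DMSO. The difference of the 2 log2 ratios (GC7 minus DMSO) had a 95% counting interval excluding 0, on the side of the larger GC7 effect, in 171 of the 381 and 238 of the 553. With DMSO but not with GC7, 617 features were called higher and 681 lower, and here the interval of the difference excluded 0 in 420 and 331. Most features past the limit only with GC7 were thus not shown to differ between the comparisons even by counting error. Over all features, the interval of the difference lay above 0 in 1626 (14.6%) and below 0 in 1871 (16.8%). Under total count scaling these numbers were 2549 and 1190. Among features called in both, the state difference was more often the larger one with DMSO. This held in 640 of the 944 higher features, whose median log2 ratio was 1.56 with GC7 and 1.76 with DMSO. It also held in 459 of the 719 lower features, with medians of -1.62 and -1.9. The counting interval of the difference excluded 0 in fewer. It did so for a smaller GC7 effect in 251 higher and 103 lower features, and for a larger one in 67 and 47. With total count scaling the median of all features was -0.24 with GC7 and -0.4 with DMSO, and these splits were not computed with it.

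To ask for a state difference common to both treatments, the 4 libraries were fitted together in edgeR with treatment and state as additive terms, which left 1 residual degree of freedom. Its quasi-likelihood test found 2001 features higher (18%) and 1609 lower (14.5%) in OIS cells at an adjusted p under 0.05. Of the features called with GC7, 1110 of 1330 higher (83.5%) and 927 of 1282 lower (72.3%) passed it in the same direction. The model also includes the GC7 libraries, so it is no independent check of the GC7 calls. With the Wald test of DESeq2 in the same model, 1328 were higher and 797 lower.

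The features furthest apart with GC7 were far apart with DMSO as well. All 15 with the highest ratios and at least 200 counts in the GC7 libraries were also called higher with DMSO, and all 15 with the lowest were also called lower. Their log2 ratios with GC7 ran from 4.51 to 7.90 and from -8.03 to -4.47. All 30 also passed the additive model, but it was fitted on the same GC7 counts by which they were picked. The minimum of 200 counts could be met through the higher state alone. Passing the model is therefore no separate support for these 30. In each of the 30, both OIS libraries lay on the same side of both proliferating libraries.

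The highest ratio belonged to ENSG00000141469.12 (chr18:43304092-43332485, 6376 exonic bases in 11 blocks). It had 1 count in proliferating cells with DMSO, 0 with GC7, 113 in OIS cells with DMSO and 234 with GC7. Against a floor of 3 counts in the proliferating GC7 library it was at least 123-fold higher in OIS cells with GC7. The next was ENSG00000125845.6 (chr20:6748311-6760927, 3601 exonic bases in 3 blocks), with 3, 0, 73 and 207 counts in the same order of libraries and a difference with GC7 of at least 109-fold. Both were near the floor in proliferating cells with either treatment.

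A feature at chr6:84222194-84235423 (2608 exonic bases in 3 blocks) had 126 counts in proliferating cells with DMSO, 73 with GC7, 2058 in OIS cells with DMSO and 4551 with GC7. Its log2 ratio was 6.59 with GC7 (95% counting interval 6.29 to 6.97) and 5.06 with DMSO. The difference of 1.53 had an interval of 1.11 to 1.95, so this state difference was larger with GC7 beyond counting error. At chr6:116440086-116479910 (3816 exonic bases in 4 blocks) the difference was the other way, with counts of 2, 12, 293 and 421 and ratios of 5.62 with GC7 and 7.66 with DMSO. Its difference of -2.04 had an interval from -4.01 to -0.07 and rests on the 2 counts of 1 library. In 5 of the 15 highest features and 1 of the 15 lowest the interval of the difference excluded 0.

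The lowest ratio belonged to ENSG00000137573.9 (chr8:70378859-70573150, 9404 exonic bases in 32 blocks). It had 256 counts in proliferating cells with DMSO and 405 with GC7, and 0 in both OIS libraries, and it was at least 85.5-fold lower in OIS cells with GC7. ENSG00000204291.6 (chr9:101705461-101833069, 6637 exonic bases in 44 blocks) had 55 and 302 counts in proliferating cells with DMSO and GC7, 2 in OIS cells with DMSO and 0 with GC7, which is at least 63.8-fold lower with GC7. The counts of both features fell to the floor in OIS cells under either treatment.

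At chr9:75515578-75695358 (2849 exonic bases in 16 blocks) the counts were 2401 in proliferating cells with DMSO, 2331 with GC7, 4 in OIS cells with DMSO and 47 with GC7. The log2 ratio was -4.94 with GC7 and -8.03 with DMSO. This gave the largest difference above 0 among features with at least 200 counts, 3.08 (interval 1.69 to 4.48), and the fall in OIS cells was deeper with DMSO. A feature at chr12:91539025-91576900 (8083 exonic bases in 15 blocks) had 2869, 4582, 45 and 109 counts in the order proliferating DMSO, proliferating GC7, OIS DMSO and OIS GC7. Its ratios of -4.72 with GC7 and -4.94 with DMSO differed by 0.22, with an interval from -0.29 to 0.72 that included 0.

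**Figure D3:**
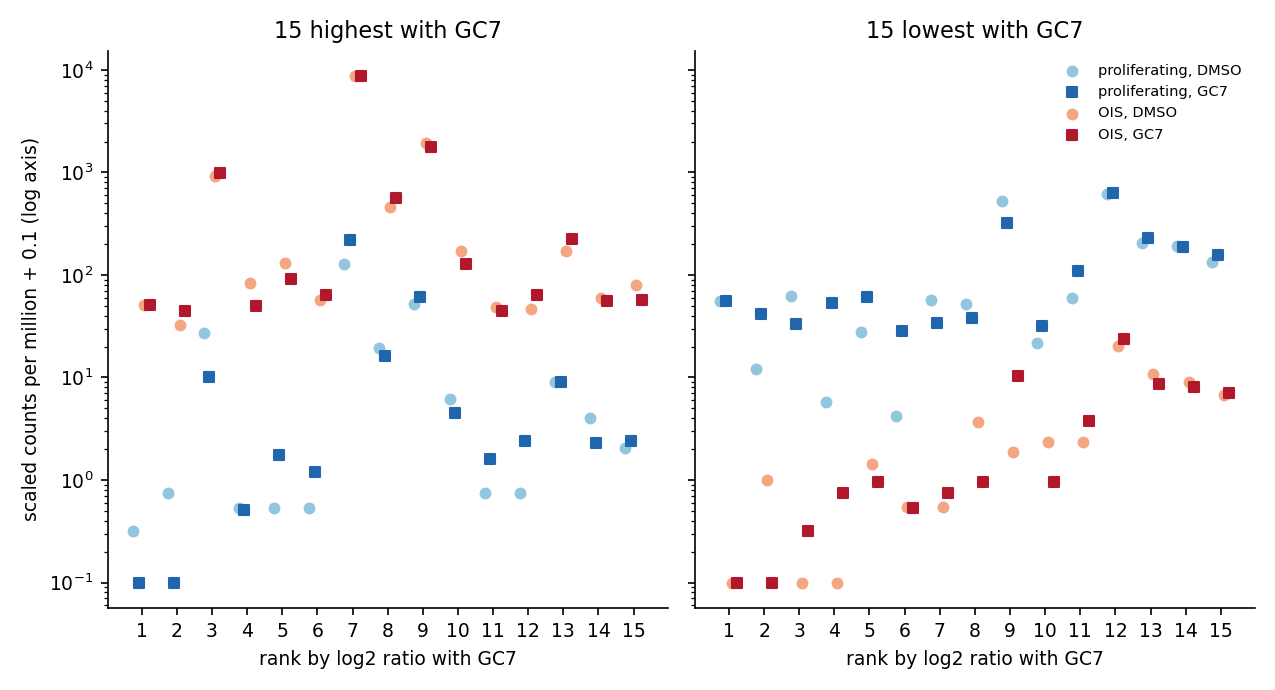
The vertical axis gives scaled counts (CPM) plus 0.1 on a log axis in each of the 4 libraries for the 15 features with the highest (left) and the 15 with the lowest (right) log2 ratio with GC7, ordered by rank on the horizontal axis, and libraries at the bottom of the axis had 0 counts. In all 30 features both OIS libraries (red) lie on one side of both proliferating libraries (blue).

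The most abundant features that differed with GC7 were looked up after their values were seen. Among those higher in OIS cells, the one with the most counts lay at chr8:42032236-42065242 (7133 exonic bases in 16 blocks), with 589 counts in proliferating cells with DMSO, 1602 with GC7, 19505 in OIS cells with DMSO and 40075 with GC7. Its log2 ratio of 5.30 with GC7 was below that of 6.09 with DMSO, and the difference of -0.79 had an interval from -0.92 to -0.65. A feature at chr4:24791534-24802464 (2128 exonic bases in 4 blocks) had counts of 1727, 3103, 12262 and 29814 and ratios of 3.92 and 3.87, whose difference of 0.05 had an interval from -0.04 to 0.14. The state difference of this feature was thus about 15.2-fold with GC7, with a difference from DMSO that counting error covers.

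Among features lower in OIS cells, the one with the most counts lay at chr7:94023873-94060544 (11151 exonic bases in 46 blocks), with 93082 counts in proliferating cells with DMSO, 133396 with GC7, 27860 in OIS cells with DMSO and 39237 with GC7. Its log2 ratio was -1.11 with GC7, past the 2-fold limit, and -0.70 with DMSO, short of it, a difference of -0.41 with an interval from -0.43 to -0.38. A feature at chr17:48260650-48278993 (9819 exonic bases in 43 blocks) had counts of 94126, 117981, 7316 and 13139, and its ratios of -2.51 and -2.64 were both past the limit. At chr2:216225163-216300895 (17315 exonic bases in 41 blocks) the counts were 19055, 34024, 6576 and 8339. Here the ratio was -1.37 with GC7 and -0.49 with DMSO, a difference of -0.88 with an interval from -0.93 to -0.82. At chr16:69740899-69760854 (3254 exonic bases in 7 blocks) the counts were 13727, 33482, 1409 and 3213 and the ratios -2.72 and -2.24. In 3 of these 4 features the fall in OIS cells was larger with GC7 than with DMSO by more than counting error. These 4 were ranked by counts in proliferating cells with GC7 among features lower with GC7, which favours a larger fall with GC7. Ranks 3 and 6 in that order, at chr15:39873280-39891667 and chr2:189896622-190044605, had ratios of -1.38 and -1.30 with GC7 and -1.06 and -0.70 with DMSO. Among all features called lower in both comparisons, the larger fall was with DMSO in 459 of 719.

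1 stretch of the genome stood out by how many of its features were lower. When the genome was divided into windows of 1000000 bases, 275 windows held at least 10 compared features, and a median of 7.69% of a window's features were lower with GC7. The 2 windows with the highest shares were neighbours on the short arm of chromosome 6, with 31 of 37 features lower (83.8%) and 18 of 21 lower (85.7%), and the next window, on chromosome 20, had 45.5%. Together they span chr6:26017260-27861669. This region of the genome is known for the main cluster of replication-dependent histone genes, short genes without introns that are expressed in S phase. The features were not matched to gene names, and the stretch was chosen after the values were seen, so that its counts are a description.

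In this stretch 49 of 58 features (84.5%) were lower in OIS cells with GC7 and 1 was higher. With DMSO 51 were lower, 48 of them the same as with GC7, and edgeR's additive model called 51 lower. The 58 features together had 50357 counts in proliferating cells with DMSO, 86726 with GC7, 5852 in OIS cells with DMSO and 17680 with GC7. As a share of each library's counts on the 11128 compared features this was 1.2%, 1.33%, 0.22% and 0.366%. Both OIS libraries were therefore low, and the OIS GC7 library held a larger share than the OIS DMSO library.

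The median log2 ratio of the stretch was -1.67 with GC7 and -2.13 with DMSO. The difference of the ratios was above 0, a smaller fall with GC7, in 48 of 58 features, with a median of 0.44, and its counting interval lay above 0 in 31 features and below 0 in 3. With total count scaling the median difference was 0.6, and the interval lay above 0 in 35 and below 0 in 2. For instance, the feature at chr6:26031817-26032288 (472 bases in 1 block) had 2995 counts in proliferating cells with DMSO, 4404 with GC7, 244 in OIS cells with DMSO and 763 with GC7, and ratios of -1.87 with GC7 and -2.57 with DMSO. The feature with the deepest fall, at chr6:27782822-27783267 (446 bases in 1 block), had counts of 640, 1176, 24 and 109 and ratios of -2.76 and -3.67. The ratios of all compared features were also less spread with GC7, with an SD of 1.05 against 1.21 with DMSO. Whether the smaller fall of the stretch with GC7 exceeds the spread between cultures cannot be told with 1 library per condition.

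Of the 58 features, 41 consist of a single exon block, with a median exonic length of 472 bases, and 39 of these 41 were lower with GC7. Their median log2 ratio was -1.73 with GC7 and -2.23 with DMSO. All 32 single-block features with at least 1000 counts over the 4 libraries were lower with both treatments. They met that minimum mainly through proliferating cells, with 37170 counts with DMSO and 63813 with GC7, against 3721 and 12136 in OIS cells. The minimum thus favours features that are low in OIS cells, in a stretch picked for its lower features, and the 32 are a description only. Of the 17 features with several blocks 10 were lower. The 1 feature of the stretch that was higher, at chr6:26383324-26395102 (6398 exonic bases in 5 blocks), had 35, 36, 47 and 103 counts and a log2 ratio of 2.13 with GC7. In the stretch, 29 of 31 single-block features under 700 bases were lower with GC7. Of 35 single-block features with 300 to under 700 bases outside it, 2 were lower and 9 higher with GC7. Depth was unlike, as single-block features of the stretch had a median of 1445 counts over the GC7 libraries. Single-block features elsewhere had a median of 85 counts under 500 bases and 137 from 500 bases upwards. Near-identical copies can share reads, and the sources used here do not say how reads matching several places were counted, so the split of counts between single features of the stretch is uncertain.

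**Figure D4:**
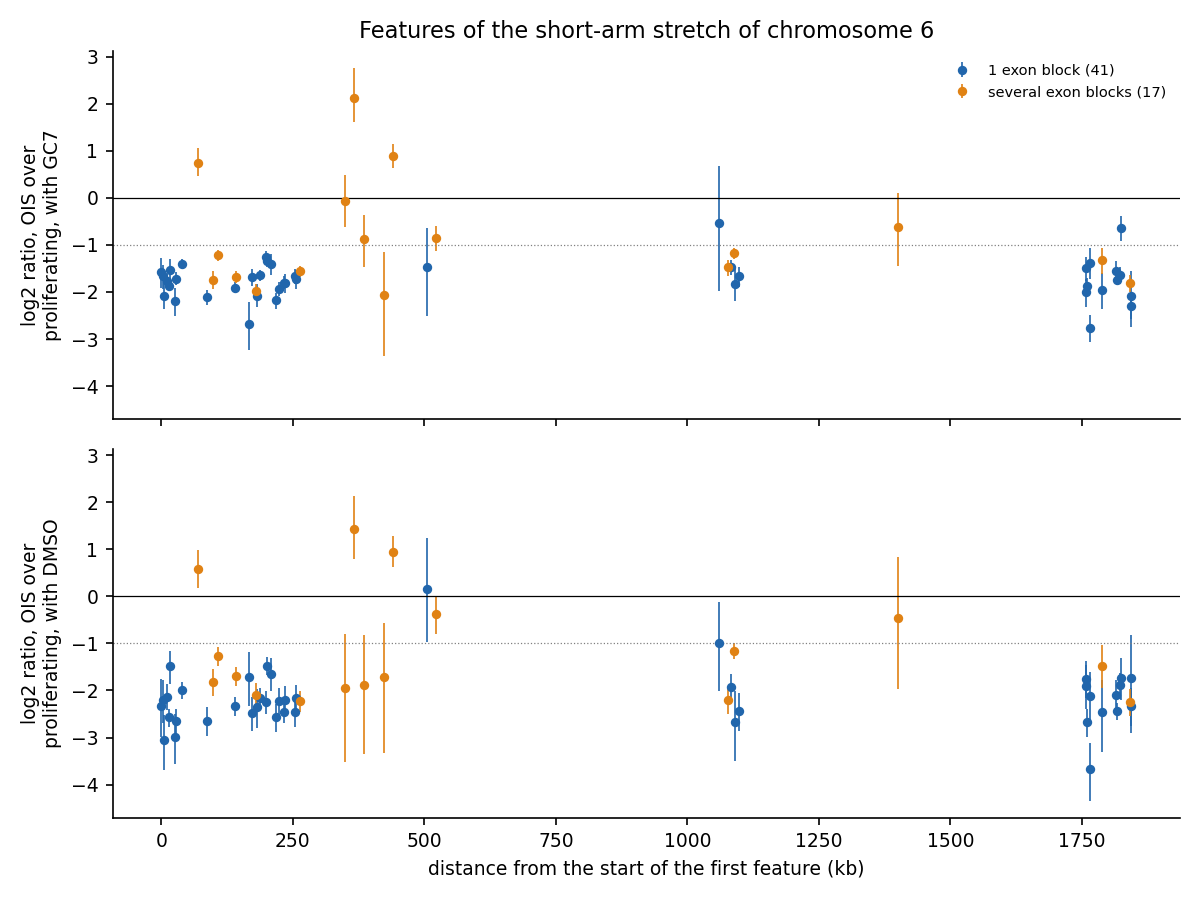
Log2 ratio of OIS over proliferating cells with GC7 (top) and with DMSO (bottom) of the 58 compared features of the chromosome 6 stretch, by distance in kb from the start of the first feature, with bars giving the 95% exact counting interval, a solid line at equal counts and a dotted line at the 2-fold limit. Single-block features (blue, 41) group below the 2-fold limit in both panels, with medians of -1.73 and -2.23.

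Neighbouring features were called in the same direction elsewhere too, but in shorter runs. In the stretch there were 5 runs of at least 3 neighbouring features that were all lower, with 47 features in total, all 47 also lower with DMSO, and the longest held 20. Outside it there were 59 runs with 194 features, of which 132 were also called with DMSO, and the longest held 5. One of the longest lay at chr18:57098172-59854351, where 5 neighbours were higher with GC7, with ratios from 1.01 to 2.91, and all 5 were also higher with DMSO. The other lay at chr4:129730779-135122903, where 5 neighbours were lower by -3.03 to -1.19 and 3 of them were also called lower with DMSO. On chromosome 6 as a whole 21.5% of 576 features were lower, and 14.5% of 518 without the stretch, against 11.5% of all compared features. Without the stretch this was no outlier, as the share was 20.2% on chromosome 18 and 16.7% on chromosome 12.

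Exonic length and number of exon blocks moved with the calls. In the shortest 20% of features 11.8% were higher and 15.9% lower with GC7, and in the longest 20% of features 13.2% were higher and 8.89% lower. The Spearman correlation of exonic length with the log2 ratio across features was 0.0831 with GC7 and 0.174 with DMSO. Features with over 30 exon blocks were higher in 14.6% and lower in 8.47% of 767, with a median log2 ratio of 0.14 with GC7 and 0.48 with DMSO. The lean of long features towards OIS cells was thus smaller in the GC7 values, as a description across features that share libraries.

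Very short features leaned towards OIS cells. Of 177 single-block features under 500 bases outside the chromosome 6 stretch, 64 (36.2%) were higher and 16 (9.04%) lower with GC7, with a median exonic length of 129 bases. A pair of features of 116 bases each on chromosome 15, at chr15:65597015-65597130 and chr15:65588389-65588504, were among the 6 most abundant features higher with GC7. The former had 18871 counts in proliferating cells with DMSO, 16720 with GC7, 18852 in OIS cells with DMSO and 26624 with GC7, and the latter 21913, 14548, 30346 and 24465. The tables do not mark gene type, so in features this short footprints of translated mRNA cannot be told apart from other RNA. Leaving out all features under 500 bases changed the number called with GC7 from 2612 to 2501.

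**Figure D5:**
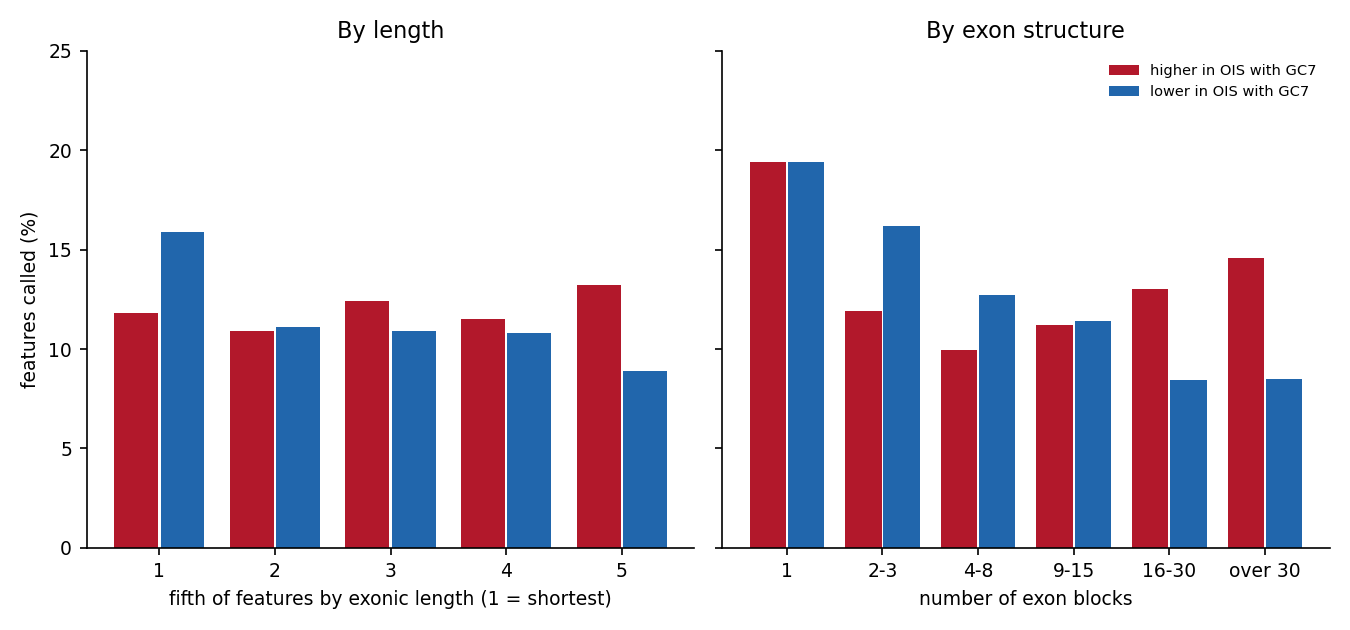
Percentage of features called higher (red) and lower (blue) in OIS than in proliferating cells with GC7, by exonic length in 5 equal groups (left) and by number of exon blocks (right). The longest group has 13.2% higher against 8.89% lower, and single-block features have 19.4% in each direction.

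Some differences turned round between the treatments. In 263 features (2.36%) the counting intervals of the GC7 and the DMSO ratio lay on opposite sides of 0, above it with GC7 in 138 and below it in 125, and 208 of the 263 had at least 400 counts. Which side of 0 a ratio lies on depends on the scaling, and the 263 were counted with TMM only. Past the 2-fold limit in both comparisons were 15 of the 263, 5 higher and 10 lower with GC7. None of the 15 passed edgeR's additive model, which asks for a state difference common to both treatments. That outcome follows largely from how the 15 were picked, so it says nothing more about them. They had between 48 and 264 counts over the 4 libraries. The number called in opposite directions was 55 at a limit of 1.5-fold, 2 at 3-fold and 0 with the 2-fold limit and a minimum of 400 counts. At chr1:28586038-28609002 (3453 exonic bases in 10 blocks) the counts were 54 in proliferating cells with DMSO, 692 with GC7, 118 in OIS cells with DMSO and 233 with GC7. The ratio was 2.15 with DMSO and -0.91 with GC7 (interval -1.13 to -0.70), on opposite sides of 0, a difference of -3.06 with an interval from -3.57 to -2.55. At chr9:2621834-2660053 (9339 exonic bases in 19 blocks) the counts were 24, 416, 66 and 172 and the ratios 2.45 with DMSO and -0.61 with GC7 (interval -0.88 to -0.36), again on opposite sides of 0. In both features the proliferating GC7 library was the highest of the 4 and the proliferating DMSO library the lowest. At chr7:6655248-6663921 (3857 exonic bases in 3 blocks) a difference was present with GC7 and small with DMSO, with counts of 26, 29, 20 and 149 and ratios of 2.95 and 0.64. Here the OIS GC7 library alone was high.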

How the data were processed

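Footprint reads were aligned by the authors to hg19 (the submitters' processing notes list STAR 2.5.3a). The deposited values are raw counts per gene of the GENCODE version 19 annotation, made with featureCounts version 1.5.1. Options for strand or for reads that match several places do not appear in the headers, so reads of antisense partners cannot be told apart. Linkers with molecular identifiers were ligated to the fragments and ribosomal RNA was depleted, per the study's methods. Whether the identifiers were used in counting, and how reads were trimmed, was not found in the sources used here. Groups came from the sample titles. Members, gene lists and comparisons were chosen with earlier results of these data known, and the chromosome 6 stretch, the runs, the length and block classes and the most abundant features were chosen after their values were seen.

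Nuclear features were kept from a sum of 40 counts upwards, and the remaining nuclear features and the mitochondrial features were left out of the scaling. The totals of 3039026 to 6553835 counts per library set the precision. Counts were scaled with TMM over all 4 libraries (edgeR version 4.0.16, R version 4.3.3), and log2 ratios used a prior count of 1. A call needed a 2-fold ratio and equality outside a 95% exact interval (Clopper-Pearson, conditional on the sum of both counts). The interval of the difference of 2 ratios was normal, with a variance from the 4 counts. These intervals cover counting error only, and with 1 library per group the GC7 comparison has no test and no replicate check. The additive model was fitted with edgeR's quasi-likelihood test, with Benjamini-Hochberg adjustment over all members. A response to GC7 that differs by state enters its 1 residual degree of freedom. Folds against a library at 0 were set against a floor of 3 counts in that library.

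The reference gene table (assembly GRCh38) named 0 of the 57820 features. The 37 gene lists therefore had 0 named members, and list summaries, marker checks, and sequence features of promoters and proteins were not run. The rule for named features took the 15 highest and 15 lowest called ratios with at least 200 GC7 counts, the largest differences between the treatments, and those called in opposite directions. With no names, Ensembl numbers were limited to 2 higher and 2 lower features. Alternatives were DESeq2 size factors (version 1.42.0), total count and upper quartile scaling, TMM from the GC7 libraries, minimum sums of 400 and 1, a prior count of 5, limits of 1.5-fold and 3-fold, features of at least 500 exonic bases, the DESeq2 Wald test and a model without treatment.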

Additional observations from a re-analysis of the deposited data

Results flagged for a closer look

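Features called in opposite directions with GC7 and with DMSO are listed by the difference of their log2 ratios of OIS over proliferating cells (GC7 minus DMSO), for the 10 of 15 with the most counts. Each treatment has 1 pair of libraries, so the difference was not tested beyond its counting interval. That interval excluded 0 in all 15, which being called in opposite directions already brings about. In the feature at chr15:32933877-32989299 the difference was -3.08, from a ratio of 1.79 with DMSO to -1.29 with GC7. At chr3:48488114-48507115 it was 2.48, from -1.08 to 1.40, and at chr11:62457747-62477317 it was -2.79. The feature at chr17:1611064-1613732 differed by -2.34 and the one at chr3:56591189-56655846 by -2.04. The largest difference, 4.89, was that of a single-block feature of 699 bases at chr17:19091329-19092027, which had 53 counts in proliferating cells with DMSO, 10 with GC7, 7 in OIS cells with DMSO and 61 with GC7. Gene type is not marked for this feature, so footprints of translated mRNA cannot be told apart from other RNA in its counts. The remaining 4 differences were -2.48 at chr3:66119285-66438540, -2.41 at chr2:68694693-68858004, -2.66 at chr6:79577189-79656157 and -2.57 at chr10:88963632-89102369.

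Mitochondrially encoded features were outside the comparison. With GC7, all 27 with at least 40 counts had more scaled counts in OIS cells, at a median log2 ratio of 2.27, and the median with DMSO was 2.19. Mitochondrial features took 0.0281% of the proliferating and 0.141% of the OIS counts with GC7, against 2.89% and 12.2% with DMSO. The GC7 ratios thus rest on far fewer counts. Among the nuclear members, 3 near the start of chromosome 1 also had far fewer counts with GC7. The features at chr1:565020-566063 and chr1:569076-569756 had 931, 14, 1662 and 19 and 887, 6, 1802 and 19 counts (proliferating DMSO, proliferating GC7, OIS DMSO, OIS GC7). Both were called higher with GC7, on few GC7 counts, and the interval of the ratio at chr1:565020-566063 ran from 0.03 to 2.21. The third, at chr1:566454-567996, had 30, 1, 75 and 0 counts and was not called with GC7. All 3 met the minimum of 40 counts only through the DMSO libraries. Whether they hold reads of mitochondrial RNA was not tested.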

How the results depend on the processing

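No paired analysis was possible because there was 1 library per condition, and for the same reason no library could be left out. Every call rests on 1 library per group and on counting error, and the spread between cultures is unknown. Low counts limit the calls, since intervals were widest where the GC7 libraries held under 50 counts. With total count scaling, 958 features were higher and 2533 lower with DMSO, 601 higher and 1225 lower in both comparisons, and 1255 higher and 2797 lower in the additive model, and the interval of GC7 minus DMSO lay above 0 in 2549 and below 0 in 1190. A minimum of 400 counts gave 653 higher and 599 lower with GC7, 869 and 671 with DMSO, and 537 and 398 in both. A limit of 1.5-fold gave 2350 and 2329 with GC7, 2497 and 2325 with DMSO, and 1685 and 1377 in both. A limit of 3-fold gave 537 and 537 with GC7, 739 and 683 with DMSO, and 387 and 306 in both. The DESeq2 Wald test gave 1328 higher and 797 lower for state. The cause of these shifts was not tested, apart from the limits and the minimum, which admit more or fewer features by construction. The number called in opposite directions was 55 at 1.5-fold, 2 at 3-fold and 0 with a minimum of 400 counts, against 15. With at least 500 exonic bases the chromosome 6 stretch kept 30 features, 23 of them lower with GC7. The remaining counts of calls were within 1.5 times the main ones. No ratio of the 63 features computed one by one changed sign where it had been called, and 422 of 475 such values lay inside the main counting interval. Alternatives for gene lists were not run, as no list had a named member, and TMM from the GC7 libraries gave no factor for the DMSO libraries, so the DMSO and shared counts were not computed with it.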
